A study of Mus musculus with 12 samples.

Results

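Steroid hormone receptors are ligand-activated transcription factors of the nuclear receptor family: a steroid enters the cell, binds its receptor and lets it act on genes near the matching DNA elements. The 5 described here are the glucocorticoid receptor (Nr3c1), the estrogen receptors alpha (Esr1) and beta (Esr2), the mineralocorticoid receptor (Nr3c2) and the progesterone receptor (Pgr). In the prostate, Esr1 is best known from stroma and Esr2 from epithelium, and the glucocorticoid receptor is known for taking over part of the androgen programme in prostate cancers deprived of androgen. They were found by symbol in the table of raw counts, 5 of 23479 gene symbols. All 5 passed the filter on low counts, as did 15082 symbols in all; for Esr2 this rested on few libraries, since it had at least 10 counts in 4 of 12.

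RNA was measured in bulk in 12 mouse prostate tumours, 3 in each of 4 groups, grown from PTE-82 cells injected into prostates of C57BL/6J mice; PTE-82 is a prostate cancer line with the TMPRSS2-ERG fusion. The groups were Lupron plus anti-CSF1, Lupron, anti-CSF1 and control IgG. Lupron lowers testosterone through the pituitary and was administered on day 4 (0.6 mg for each mouse), and anti-CSF1, an antibody against a macrophage growth factor, on days 9 and 14. Tumours were taken on day 17 after perfusion. All groups shared the single injected line, the host strain and an orthotopic graft surrounded by the host's own glands; the ages of the mice, and whether mice on Lupron alone also received IgG, are stated by no source used here.

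Library totals ran from 20584363 to 29965355 counts. RNA integrity numbers ran from 8.2, in IgG replicate 2, to 9.8, in anti-CSF1 replicate 2. A level is in the usual unit CPM, a gene's share of its library's reads after TMM scaling of the library totals. Levels of different genes are set side by side only as CPM per kilobase of exon. Some libraries stood apart in genes of non-tumour tissue. IgG replicates 3 and 2 were highest and next highest of the 12 for the summed markers of smooth muscle, luminal epithelium, basal epithelium, prostate secretion and fat, and IgG replicate 3 was lowest for proliferation genes (132 CPM, against 930 to 2115 CPM in the other libraries). Seminal vesicle markers reached 369609 CPM in Lupron replicate 2, which was 28.5% of its unscaled counts. Luminal markers, which the grafted cells could share, were all detected in every library. In bulk tumours, fewer cells that express a receptor and less RNA per cell cannot be told apart.

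Proximal promoters are shown for the 3 receptors on which most of the values below turn: Pgr, which had its lowest levels in the tumours given both agents, and Nr3c2 and Esr2, which were highest in the same 3 libraries. Each is the run of 250 bases before the RefSeq start (GRCm38.p6), read on the gene's strand at chr9:8899583-8899832 for Pgr, chr8:76902080-76902329 for Nr3c2 and chr12:76177260-76177509 for Esr2. Capitals mark matches on either strand to 3 common promoter elements. The GC box was searched as GGGCGG. The CCAAT box was searched by the letters of its name. The TATA box was searched as TATAAA.
Pgr: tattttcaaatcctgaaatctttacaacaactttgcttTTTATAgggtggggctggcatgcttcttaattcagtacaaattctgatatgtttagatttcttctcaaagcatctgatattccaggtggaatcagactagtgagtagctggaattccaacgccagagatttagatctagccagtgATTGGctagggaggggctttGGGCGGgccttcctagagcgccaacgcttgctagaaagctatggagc
Nr3c2: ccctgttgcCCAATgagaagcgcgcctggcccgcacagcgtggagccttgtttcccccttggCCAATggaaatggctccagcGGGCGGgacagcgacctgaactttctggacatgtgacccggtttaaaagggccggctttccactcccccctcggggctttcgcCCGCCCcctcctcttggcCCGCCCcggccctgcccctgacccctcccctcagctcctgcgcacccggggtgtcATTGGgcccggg
Esr2: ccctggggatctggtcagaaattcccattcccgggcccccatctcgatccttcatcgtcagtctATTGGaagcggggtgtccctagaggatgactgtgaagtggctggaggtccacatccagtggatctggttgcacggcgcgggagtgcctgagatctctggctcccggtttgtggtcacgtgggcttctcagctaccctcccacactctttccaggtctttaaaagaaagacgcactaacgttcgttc

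The Nr3c2 promoter was the richest in G and C (68.4%, with 17 CpG dinucleotides), ahead of Esr2 (56.4%, 12) and Pgr (43.6%, 4). It held 3 GC boxes and 3 CCAAT boxes, Pgr held 1 GC box, 1 CCAAT box and 1 TATA box, and Esr2 held 1 CCAAT box. Among 32851 RefSeq promoters of this length, 32.7% held a GC box, 33.8% a CCAAT box and 12.4% a TATA box. The half-sites that steroid receptors bind, AGGTCA for the estrogen receptors and AGAACA for the receptors of the other steroids, were found in 14% and 16.1% of promoters, and the AP-1 element TGACTCA in 4.46%. None of these 3 stretches of letters occurred in the 3 windows shown or in the Esr1 windows, which says nothing about binding elsewhere. The Nr3c1 promoter was not searched, so the search covers 4 of the 5 receptors.

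Pgr lies at chr9:8899833-8968611 on the plus strand (mm10, GENCODE M21), Esr1 at chr10:4611593-5005614 on the plus strand, Esr2 at chr12:76120419-76177259 on the minus strand, Nr3c1 at chr18:39410545-39519421 on the minus strand and Nr3c2 at chr8:76899442-77245012 on the plus strand. The exons of Nr3c2 share 247 bases, 3.815% of their length, with the antisense gene Gm10649; the strand setting of the counting is not given, so reads there cannot be told apart. No exon base of the other 4 receptors is shared with another gene.

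Nr3c1 had the highest level of the 5 receptors in every library, with a median over 12 libraries of 10.4 CPM per kilobase, a level at which it did not overlap with Esr1 (median 2.65). Nr3c2 (median 0.384), Pgr (0.183) and Esr2 (0.0271) followed, and the ranges of each of these neighbours overlapped across libraries. The receptors also differed in how much their levels varied: the highest library was 1.50 times the lowest for Nr3c1, 3.60 times for Esr1, 24.8 times for Pgr and 39.8 times for Nr3c2, while Esr2 had no counts in 4 libraries. The plot of the levels by tumour shows these patterns.

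**Figure D1:**
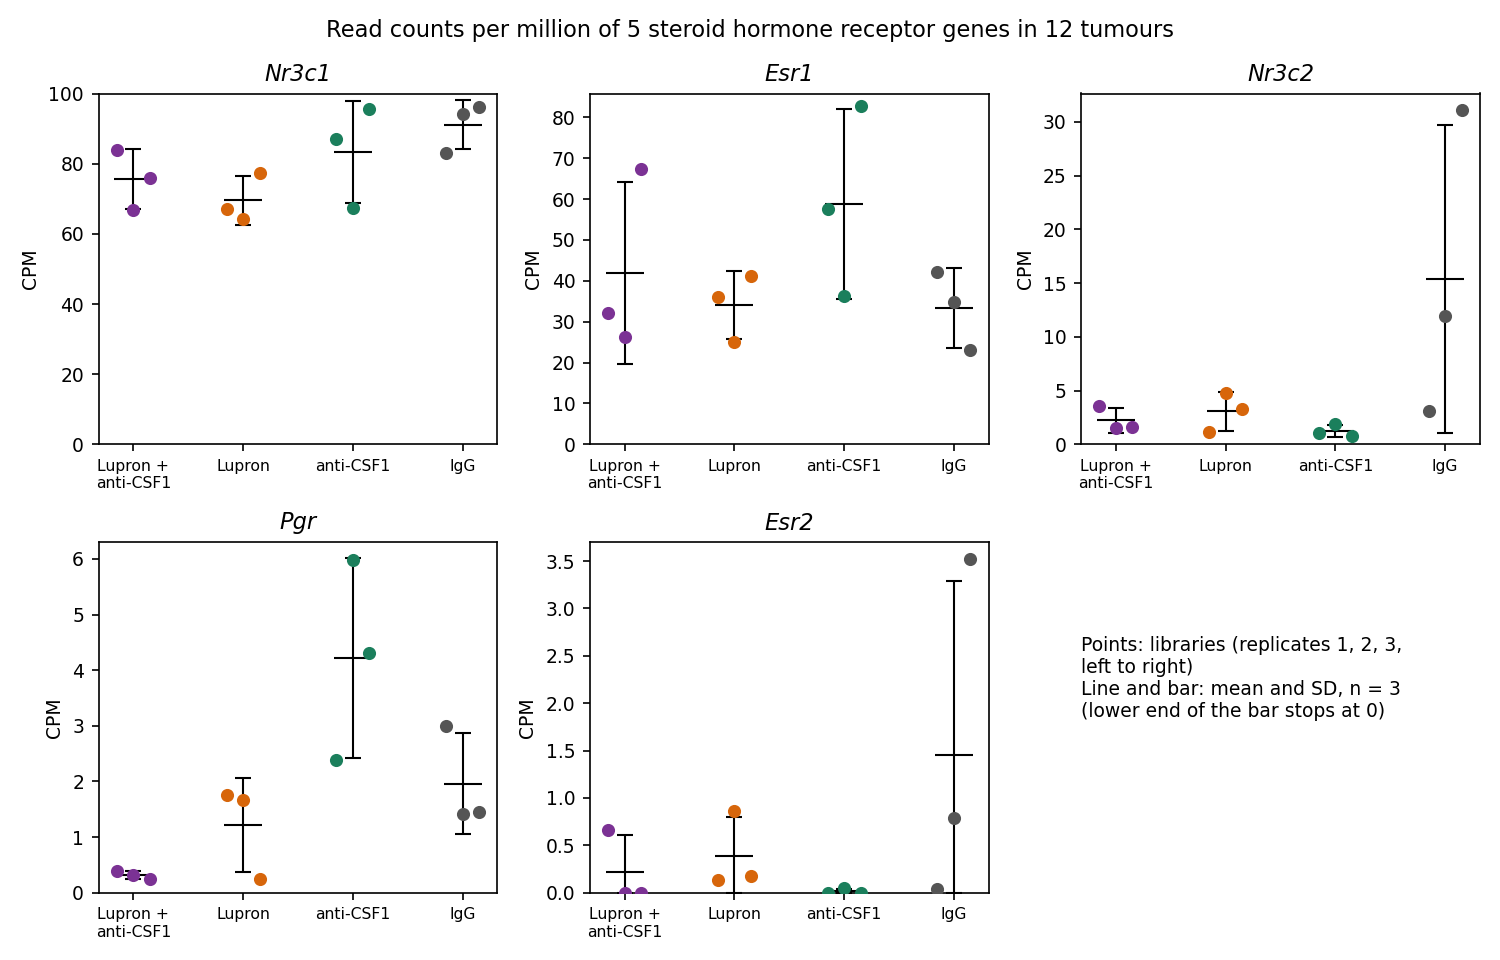
Level of each receptor in each tumour in CPM (vertical axes, linear and starting at 0, with a scale of their own), by group along the horizontal axis. Points are libraries, and the line and bar give the mean and SD of 3 libraries. Nr3c1 lies between 64.2 and 96.3 CPM in all libraries, Pgr is at or below 0.391 CPM in the 3 tumours given both agents, and Nr3c2 and Esr2 are highest in IgG replicate 3.

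No receptor passed the test in any of 8 comparisons: edgeR's quasi-likelihood F test, adjusted by Benjamini and Hochberg's method over 15082 genes, called 0 of 5 each time. The background was as sparse. The share of all genes called was 0.00663% for anti-CSF1 versus IgG, 0% for Lupron versus IgG, 0.00663% for Lupron plus anti-CSF1 versus IgG, 0% for Lupron plus anti-CSF1 versus Lupron and 0% for Lupron plus anti-CSF1 versus anti-CSF1. It was 1.87% for the antibody effect averaged over Lupron (12 genes higher and 270 lower), 0% for the Lupron effect averaged over the antibody and 0% for their interaction. At an unadjusted p under 0.05, 1 or 2 receptors stood in each comparison, beside 294 to 3922 genes. DESeq2 called a larger share of the genes to which it gave an adjusted p: 12.3% for anti-CSF1 versus IgG, 14.3% for Lupron plus anti-CSF1 versus IgG, 0.0402% for Lupron plus anti-CSF1 versus anti-CSF1, 9.54% for the averaged antibody effect and 0.0804% for the averaged Lupron effect. With IgG replicate 1 left out, edgeR called 16.8% for anti-CSF1 versus IgG, 4.19% for Lupron versus IgG, 14.2% for both agents versus IgG and 10.1% for the averaged antibody effect, and the calls given below by either rule stand beside these shares. The comparisons with IgG share its 3 libraries, so their values are not independent of each other.

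A further count is that of genes whose groups do not overlap. It was 1 of 5 receptors (Nr3c2) for anti-CSF1 versus IgG, where 23.9% of all genes had no overlap, 1 (Nr3c1) for Lupron versus IgG (19.7%), 1 (Pgr) for Lupron plus anti-CSF1 versus IgG (27.8%), 0 for Lupron plus anti-CSF1 versus Lupron (12.8%) and 1 (Pgr) for Lupron plus anti-CSF1 versus anti-CSF1 (9.97%). With 6 libraries against 6, it was 0 for the averaged antibody effect (2.39%) and 0 for the averaged Lupron effect (0.431%). These counts are close to what the shares over all genes give for 5 genes.

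**Figure D2:**
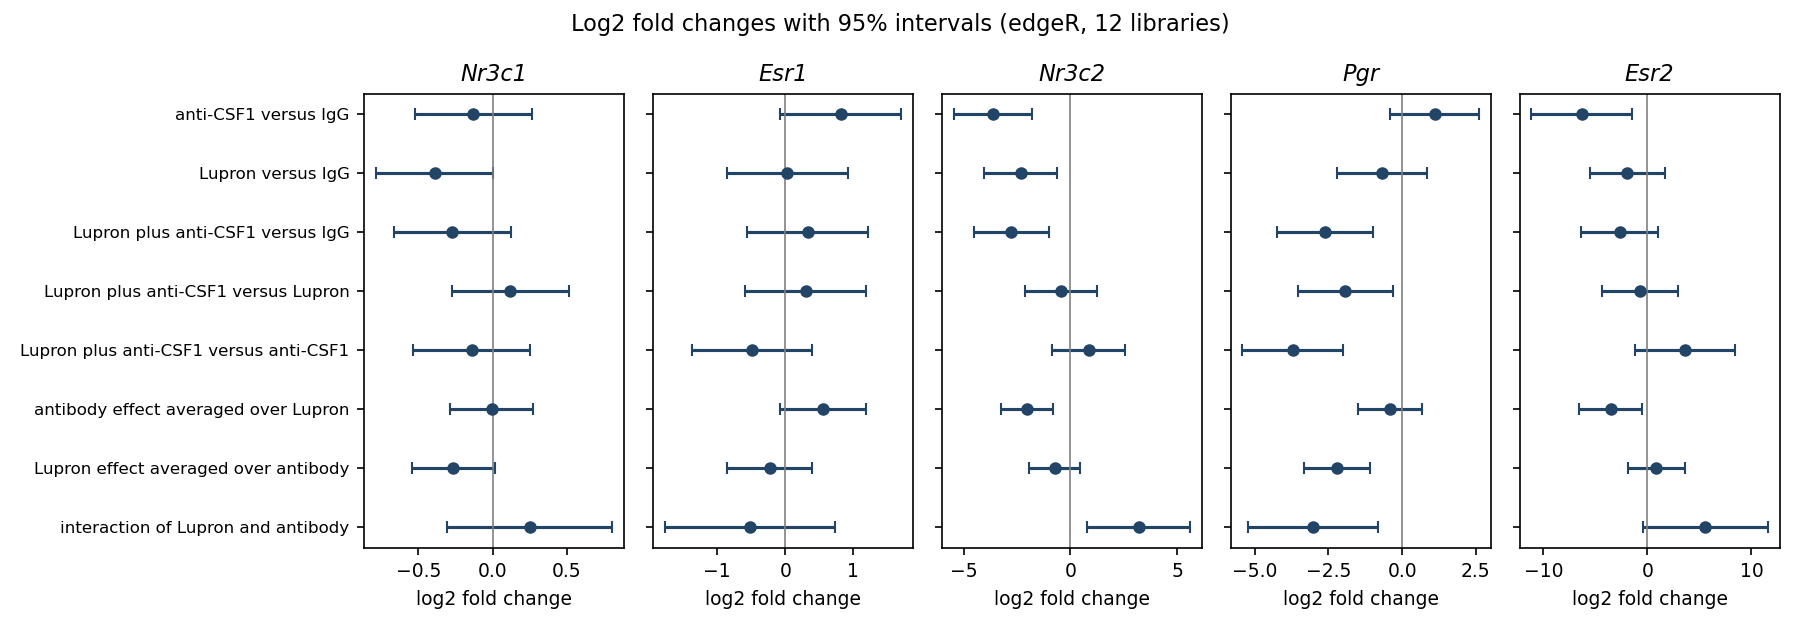
Log2 fold change of each receptor (horizontal axes, a scale for each receptor) in 8 comparisons (rows); points are edgeR estimates over 12 libraries and bars are 95% intervals. Intervals are narrowest for Nr3c1, between -0.79 and 0.01 for Lupron versus IgG, and widest for Esr2; the Pgr interval for Lupron plus anti-CSF1 versus anti-CSF1 runs from -5.41 to -2.02.

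Pgr, the progesterone receptor and a classic target of estrogen receptor alpha, had its lowest levels in tumours given both agents. Its level was 0.391, 0.320 and 0.241 CPM with Lupron plus anti-CSF1 (10, 6 and 7 counts), 1.76, 1.66 and 0.243 CPM with Lupron (52, 29 and 7 counts), 2.38, 5.97 and 4.30 CPM with anti-CSF1 (70, 126 and 121 counts) and 3.01, 1.42 and 1.46 CPM with IgG (79, 34 and 41 counts). The tumours given both agents lay below every tumour given anti-CSF1 or IgG, whereas Lupron replicate 3 lay within their range and the other Lupron tumours lay above it. The means were 0.317 ± 0.0751, 1.22 ± 0.849, 4.22 ± 1.80 and 1.96 ± 0.905 CPM with Lupron plus anti-CSF1, Lupron, anti-CSF1 and IgG (SD, n = 3 each).

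For Lupron plus anti-CSF1 versus anti-CSF1, a comparison added after the values were seen, the log2 fold change of Pgr was -3.71 ± 0.77 (SE; 95% interval -5.41 to -2.02). This was the smallest p of the 15082 genes in that comparison (0.000526 in edgeR), and it did not pass the adjustment (adjusted p = 1). DESeq2's Wald test called it (adjusted p = 0.00315), among 6 genes in all, and edgeR gave 0.995 to 1 with each library left out in turn. Against IgG the log2 fold change with both agents was -2.61 ± 0.75 (edgeR adjusted p = 0.115, and 0.0837 to 0.388 with each library left out in turn; DESeq2 0.00938), and against Lupron -1.93 ± 0.74 (edgeR adjusted p = 0.819).

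The Lupron effect on Pgr averaged over the antibody was -2.20 ± 0.51 (edgeR adjusted p = 0.525), the 12th smallest p of all genes, and DESeq2 called it (adjusted p = 0.0344); edgeR gave 0.200 to 0.855 with each library left out in turn. Single agents gave smaller differences: 1.10 ± 0.69 for anti-CSF1 versus IgG (edgeR adjusted p = 0.341) and -0.69 ± 0.69 for Lupron versus IgG (0.599). The interaction, which asks whether Lupron acted on Pgr otherwise with the antibody than without it, was -3.03 ± 1.01 (95% interval -5.24 to -0.82; edgeR adjusted p = 0.565, DESeq2 0.149).

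Markers that move with Pgr were looked for among the other cell types. With Lupron plus anti-CSF1 and with anti-CSF1, the summed markers of fibroblasts (10 of 10 in the table) ran from 3106 to 5767 and from 3353 to 6957 CPM, those of luminal epithelium (9 of 9) from 297 to 384 and from 246 to 452 CPM, those of macrophages (8 of 9) from 162 to 229 and from 148 to 287 CPM, and those of endothelium (7 of 7) from 299 to 448 and from 447 to 710 CPM. Endothelial markers overlapped between these groups by less than 1 CPM, and no marker of the 4 lists was at 0. Markers of prostate secretion (7 of 8 in the table) did not overlap between them: their sum ran from 1150 to 1603 CPM with Lupron plus anti-CSF1, where none was at 0, and from 47.1 to 617 CPM with anti-CSF1, where 1 or 2 were at 0 in each library. The same sum ran from 95.7 to 9778 CPM with Lupron and from 1614 to 51575 CPM with IgG. Tumours given both agents lay only just below IgG tumours in it (1603 against 1614 CPM at the nearest). Compared with anti-CSF1 alone, they were higher in this sum and lower in Pgr. The part of these markers in the Pgr values was not tested.

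Esr1, the receptor through which estrogen acts in prostate stroma, was the second most abundant. Its level was 32.0, 26.3 and 67.4 CPM with Lupron plus anti-CSF1, 36.1, 25.0 and 41.1 CPM with Lupron, 57.6, 36.2 and 82.7 CPM with anti-CSF1, and 42.2, 34.9 and 23.0 CPM with IgG. All groups overlapped, and the 3 highest levels were in tumours given the antibody. The means were 41.9 ± 22.3, 34.1 ± 8.28, 58.8 ± 23.3 and 33.4 ± 9.73 CPM with Lupron plus anti-CSF1, Lupron, anti-CSF1 and IgG.

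Against IgG, the log2 fold change of Esr1 was 0.82 ± 0.41 with anti-CSF1 (95% interval -0.07 to 1.71; edgeR adjusted p = 0.251), 0.33 ± 0.40 with both agents (0.609) and 0.03 ± 0.40 with Lupron (0.970). The averaged antibody effect was 0.56 ± 0.29 (95% interval -0.07 to 1.19; adjusted p = 0.309), and the averaged Lupron effect -0.23 ± 0.29 (95% interval -0.85 to 0.40; 0.743). The highest Esr1 level, in anti-CSF1 replicate 3, stood in the library with the highest fibroblast (6957 CPM) and endothelial (710 CPM) marker sums, and the lowest, in IgG replicate 3, in the library with the highest luminal and smooth muscle sums; the part of either in the Esr1 values was not tested.

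Esr2, the epithelial estrogen receptor, was at or near 0 in most tumours. It had 17, 0 and 0 counts with Lupron plus anti-CSF1 (0.665, 0 and 0 CPM), 4, 15 and 5 counts with Lupron (0.135, 0.860 and 0.174 CPM), 0, 1 and 0 counts with anti-CSF1 (0, 0.0474 and 0 CPM) and 1, 19 and 99 counts with IgG (0.0380, 0.793 and 3.52 CPM). One library, IgG replicate 3, thus held 99 of the 161 counts of all libraries, and IgG overlapped with every other group. Scaled for library size, the IgG level was 119 times that with anti-CSF1 (95% interval 21.0 to 4757, counting error only), a ratio that rests on 1 count in the anti-CSF1 group, below the 3 counts taken as the floor. Of the 119 IgG counts, 99 were from IgG replicate 3; without it the ratio was 31.3 (5.01 to 1297), on 20 IgG counts against the same 1.

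On the same scale, IgG was 6.56 times as high as Lupron plus anti-CSF1 (95% interval 3.93 to 11.6) and 4.80 times as high as Lupron (3.08 to 7.78). Without IgG replicate 3 these ratios were 1.72 (0.855 to 3.49) and 1.26 (0.659 to 2.37), with both intervals including 1. None of these differences passed over libraries (edgeR adjusted p = 0.323 for Lupron plus anti-CSF1, 0.532 for Lupron and 0.137 for anti-CSF1, each versus IgG). For anti-CSF1 versus IgG, DESeq2 called Esr2 (adjusted p = 0.0231), as did edgeR without IgG replicate 1 (0.0482), whereas without IgG replicate 3 the adjusted p was 0.419. The log2 fold change without that library was -0.86 for Lupron plus anti-CSF1 versus IgG (adjusted p = 0.854), against -2.67 with it, and -0.13 for Lupron versus IgG (0.987), against -1.93 with it. Levels of Esr2 between 0 and the value of 3 counts in a group (0.0382 to 0.0409 CPM) were not detectable at this depth.

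Nr3c2, the mineralocorticoid receptor, which aldosterone and glucocorticoids activate and which controls sodium transport in epithelia, was highest in 2 of the 3 IgG tumours and low elsewhere. Its level was 3.60, 1.55 and 1.58 CPM with Lupron plus anti-CSF1, 1.15, 4.76 and 3.27 CPM with Lupron, 1.09, 1.85 and 0.782 CPM with anti-CSF1 and 3.12, 11.9 and 31.1 CPM with IgG. Every anti-CSF1 tumour lay below every IgG tumour, while IgG replicate 1 lay within the range of both Lupron groups. The means were 2.24 ± 1.17, 3.06 ± 1.81, 1.24 ± 0.549 and 15.4 ± 14.3 CPM with Lupron plus anti-CSF1, Lupron, anti-CSF1 and IgG.

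Against IgG, the log2 fold change of Nr3c2 was -3.64 ± 0.84 with anti-CSF1 (95% interval -5.47 to -1.80; edgeR adjusted p = 0.0903), -2.77 ± 0.80 with both agents (0.115) and -2.34 ± 0.79 with Lupron (0.284). The averaged antibody effect was -2.04 ± 0.56 (95% interval -3.26 to -0.81; adjusted p = 0.101), and the interaction 3.20 ± 1.10 (0.587). For Lupron plus anti-CSF1 versus Lupron, the log2 fold change was only -0.44 ± 0.76 (95% interval -2.11 to 1.24). Most of the averaged antibody effect thus came from anti-CSF1 versus IgG. DESeq2 called Nr3c2 with anti-CSF1 (adjusted p = 0.000146), with both agents (0.00664) and in the averaged antibody effect (0.00439). So did edgeR once IgG replicate 1 was left out, with adjusted p of 0.00945 with anti-CSF1, 0.0202 with both agents, 0.0463 with Lupron and 0.0187 in the averaged antibody effect.

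These differences moved with 1 library, and the libraries highest in Nr3c2 were also highest in several tissue markers. Without IgG replicate 3, the log2 fold change for anti-CSF1 versus IgG was -2.60 (adjusted p = 0.134), that for both agents -1.74 (0.286), that for Lupron -1.30 and the averaged antibody effect -1.52 (0.145). Leaving out each library in turn gave adjusted p between 0.00945 and 0.291 for anti-CSF1 versus IgG, and without IgG replicates 2 and 3 its log2 fold change was -1.35 (adjusted p = 1), a fit in which the lone IgG library is assumed to vary like the other groups. The summed luminal markers (9 of 9 in the table, none at 0) ran from 297 to 384 CPM with Lupron plus anti-CSF1, 193 to 577 CPM with Lupron, 246 to 452 CPM with anti-CSF1 and 462 to 2775 CPM with IgG. Smooth muscle markers (10 of 10, none at 0) ran from 474 to 898, 447 to 1797, 506 to 708 and 720 to 13296 CPM in the same groups. The 3 libraries highest in Nr3c2 (IgG replicate 3, IgG replicate 2 and Lupron replicate 2) were also, in that order, highest in luminal, smooth muscle and prostate secretion markers, and the same 3 libraries were highest in Esr2. Markers of prostate secretion (7 of 8 in the table) ran from 47.1 to 617 CPM with anti-CSF1, where up to 2 of them were at 0, and reached 51575 CPM in IgG replicate 3. The part of these tissues in the Nr3c2 and Esr2 values was not tested.

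**Figure D3:**
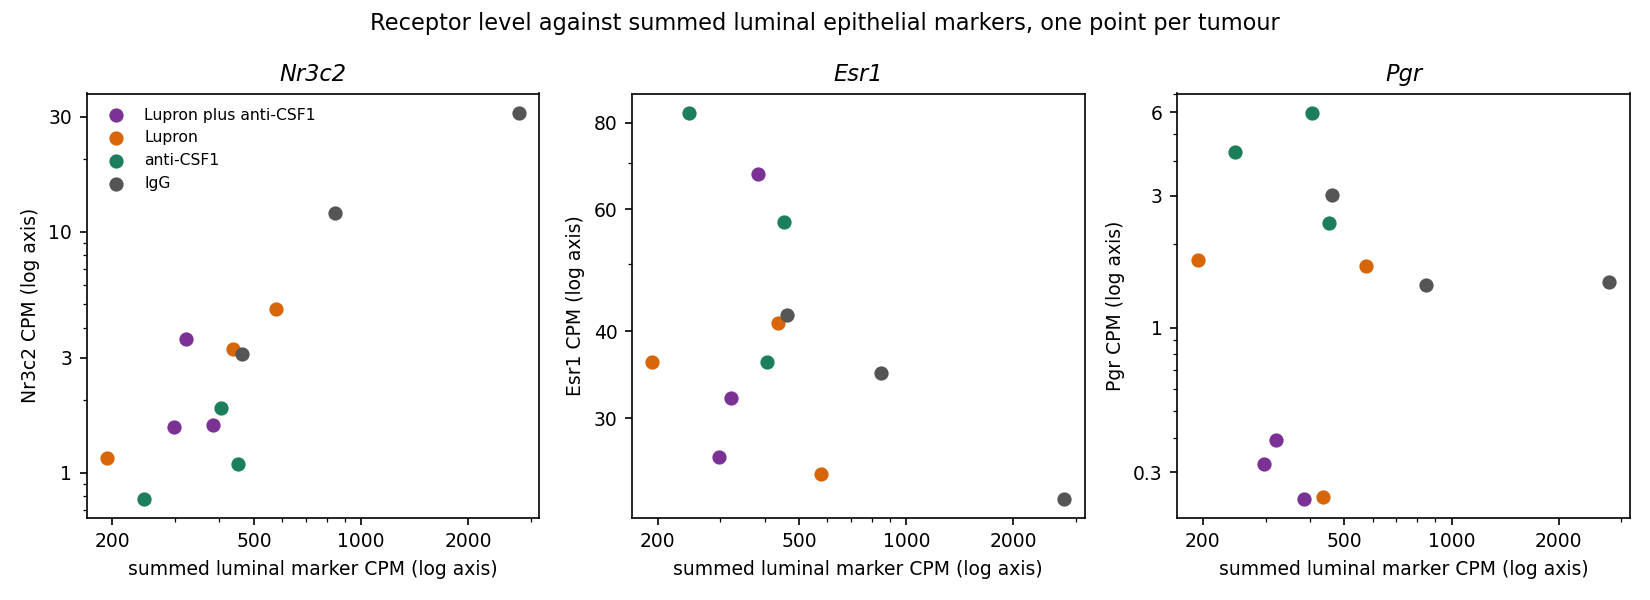
Level of Nr3c2, Esr1 and Pgr (vertical axes, CPM, log) against the sum of 9 luminal epithelial markers (horizontal axes, CPM, log); each point is 1 tumour, coloured by group. Nr3c2 is highest in the 2 IgG tumours with the highest luminal sums (847 and 2775 CPM), Esr1 is lowest in the tumour at 2775 CPM, and the 3 tumours with Lupron plus anti-CSF1 have low Pgr at luminal sums of 297 to 384 CPM.

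Nr3c1, the glucocorticoid receptor, was the most even of the 5. Its level was 84.0, 66.8 and 75.9 CPM with Lupron plus anti-CSF1, 67.2, 64.2 and 77.4 CPM with Lupron, 87.2, 67.3 and 95.5 CPM with anti-CSF1 and 83.1, 94.2 and 96.3 CPM with IgG. The Lupron tumours all lay below the IgG tumours, and the other groups overlapped. The means were 75.6 ± 8.61, 69.6 ± 6.90, 83.4 ± 14.5 and 91.2 ± 7.08 CPM with Lupron plus anti-CSF1, Lupron, anti-CSF1 and IgG.

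The log2 fold change of Nr3c1 for Lupron versus IgG was -0.39 ± 0.18 (95% interval -0.79 to 0.01; edgeR adjusted p = 0.306), a 1.31-fold lower estimate. The averaged Lupron effect was -0.27 ± 0.13 (95% interval -0.54 to 0.01; 0.525). The averaged antibody effect was -0.005 (95% interval -0.28 to 0.27; 0.986). Nr3c1 thus had the narrowest intervals of the receptors, with 1119 to 2704 counts per library behind each value.

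Genes around the receptors were taken from 7 lists: chaperones that fold steroid receptors, coactivators and corepressors, related receptors, enzymes and transporters that set how much glucocorticoid reaches its receptor, genes induced by glucocorticoids, genes of mineralocorticoid-responsive sodium transport, and genes responsive to estrogen or progesterone. By edgeR, no member of any list was called in the 8 comparisons, with 1.87% of all genes called in the averaged antibody effect. In that effect DESeq2, which called 1425 genes (9.54% of those it tested), called 0 to 4 members of a list. The median log2 fold change of all tested genes was 0.02 for the averaged antibody effect and -0.02 for the averaged Lupron effect. Several list medians given below moved toward 0 when IgG replicate 3 was left out: for the antibody, that of related receptors was then -0.36 and that of coactivators and corepressors -0.05, and for Lupron, that of related receptors was -0.04, that of glucocorticoid access -0.08 and that of glucocorticoid-induced genes -0.20.

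All 12 chaperone genes had a positive log2 fold change in the averaged antibody effect (median 0.38) and a median of -0.04 in the averaged Lupron effect. St13, a cochaperone that links Hsp70 and Hsp90, averaged 444 ± 35.4 CPM with Lupron plus anti-CSF1, 347 ± 57.2 CPM with Lupron, 468 ± 46.2 CPM with anti-CSF1 and 326 ± 53.6 CPM with IgG. Its 6 antibody tumours lay above the 6 others (0.44 ± 0.15, edgeR adjusted p = 0.164), where 2.39% of all genes had no overlap. Stip1, which passes clients between the same chaperones, had 0.61 ± 0.22 (0.186), Ptges3, the p23 cochaperone that stabilises ligand-ready receptors, had 0.45 ± 0.16 (0.174), and Dnaja1, an Hsp40, had 0.33 ± 0.16 (0.280). In the averaged Lupron effect, Fkbp4, a partner of Hsp90 in steroid receptor complexes, had -0.23 ± 0.13 (0.538).

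The lowest levels of several chaperones stood in the same libraries. IgG replicate 3 and Lupron replicate 2 were lowest and next lowest of the 12 for Stip1 (110 and 199 CPM), Ptges3 (64.8 and 108 CPM), St13 (265 and 284 CPM), the Hsp70 member Hspa8 (1007 and 1427 CPM) and the cyclophilin Ppid (25.8 and 111 CPM). They were also the lowest in the summed proliferation markers (6 of 6 in the table, none at 0; 132 and 930 CPM), whose part in the chaperone values was not tested. The list's median was 0.29 without IgG replicate 3 and 0.29 without Lupron replicate 2, with 12 of 12 positive each time.

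Of the 17 coactivators and corepressors, 14 had a negative value in the averaged antibody effect (median -0.14) and 16 in the averaged Lupron effect (median -0.39). Carm1, a methyltransferase coactivator, had -0.50 ± 0.21 and Ppargc1a, a coactivator of energy metabolism, -2.12 ± 0.76 in the averaged Lupron effect (edgeR adjusted p = 0.525 each). The pioneer factor Foxa1 (-1.11 ± 0.44, edgeR adjusted p = 0.210), Gata3 (-0.96 ± 0.33, 0.172) and Ncoa1 (-0.71 ± 0.28, 0.207) were among the lowest in the averaged antibody effect. Gata3 averaged 78.6 ± 26.3, 79.7 ± 15.8, 71.1 ± 10.5 and 265 ± 203 CPM with Lupron plus anti-CSF1, Lupron, anti-CSF1 and IgG. IgG replicates 3 and 2 were highest and next highest for Foxa1 (392 and 86.4 CPM) and Gata3 (491 and 208 CPM). The same held for Ncoa1 (79.0 and 32.9 CPM) and Ppargc1a (26.4 and 3.71 CPM). These 2 libraries stood apart in tissue markers, whose part in these values was not tested.

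Of 11 related receptors 7 were tested, with medians of -0.91 for the antibody and -0.53 for Lupron. Esrrg, an orphan receptor related to the estrogen receptors, came nearest to the threshold of all list members: its level was 1.29, 1.17 and 1.27 CPM with Lupron plus anti-CSF1, 0.541, 2.81 and 1.22 CPM with Lupron, 0.306, 0 and 0.0355 CPM with anti-CSF1 and 1.56, 9.48 and 21.1 CPM with IgG. Its averaged antibody effect was -3.35 ± 0.77 (edgeR adjusted p = 0.0550). The IgG libraries highest in Esrrg were those highest in Nr3c2 and in luminal markers. The membrane progestin receptors Paqr8 (-1.42 ± 0.55, 0.204) and Paqr5 (-2.52 ± 1.02, 0.222), and Pgrmc1 (-0.91 ± 0.40, 0.246), a membrane protein first described as binding progesterone, had negative values in the antibody effect. IgG replicate 3 stood far above all other libraries in Paqr8 (29.2 CPM, at most 4.76 CPM elsewhere) and Paqr5 (79.6 CPM, at most 5.51 CPM elsewhere). It was also highest in Pgrmc1 (1263 CPM, at most 397 CPM elsewhere). IgG replicate 1 lay within the range of the antibody tumours for each of these genes.

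Of 8 genes of glucocorticoid access 6 were tested, with medians of -0.25 and -0.26 for the antibody and Lupron. Hsd11b2, which inactivates glucocorticoids and so protects the mineralocorticoid receptor from them, had 0.587, 0 and 0.0344 CPM with Lupron plus anti-CSF1, 0.0676, 0.287 and 0.208 CPM with Lupron, 0.986, 1.80 and 1.28 CPM with anti-CSF1 and 0.647, 0.292 and 0.676 CPM with IgG. Tumours given both agents lay below those given anti-CSF1 alone, a comparison in which 9.97% of all genes had no overlap. IgG tumours (0.292 to 0.676 CPM) overlapped with those given both agents (up to 0.587 CPM). A level of 1 read was 0.0338 to 0.0574 CPM, so the lowest values rest on few reads. The averaged Lupron effect was -2.10 ± 0.81 (edgeR adjusted p = 0.525). Hsd11b1, which regenerates active glucocorticoid, had an averaged antibody effect of -1.32 ± 0.69 (0.319).

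Among glucocorticoid-induced genes, 19 of 20 were tested, and 17 had a negative value in the averaged Lupron effect (median -0.36, against 0.001 for the antibody). The metallothionein Mt2 averaged 51.4 ± 16.1 CPM in the 6 tumours given Lupron with or without the antibody, against 98.6 ± 29.8 CPM in the other 6 (-0.94 ± 0.29, edgeR adjusted p = 0.525). The cell cycle inhibitor Cdkn1a had -1.03 ± 0.32, the phosphatase Dusp1 -0.61 ± 0.24 and the transcription factor Klf9 -0.39 ± 0.16 (0.525 each). In the averaged antibody effect, Sult1a1, a sulfotransferase, had -2.01 ± 0.52 (0.0835) and Zbtb16, the PLZF repressor, -2.22 ± 0.71 (0.146), while Errfi1, a feedback inhibitor of EGF receptor, had 0.69 ± 0.28 (0.218) and Ddit4, an inhibitor of mTORC1, 0.71 ± 0.29 (0.223). IgG replicate 3, IgG replicate 2 and Lupron replicate 2, highest in luminal, smooth muscle and secretion markers, were also highest in Sult1a1 and Zbtb16. Sult1a1 had 18.5, 7.76 and 4.70 CPM there and at most 2.15 CPM elsewhere. Zbtb16 had 55.1, 17.9 and 26.8 CPM there and at most 10.3 CPM elsewhere. The part of these tissues in the 2 genes was not tested.

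In mineralocorticoid-responsive sodium transport, 8 of 9 genes were tested, and the medians were -0.99 for the antibody and -0.98 for Lupron, with 7 of 8 negative in each. Scnn1a, the alpha subunit of the epithelial sodium channel, averaged 0.760 ± 0.378 CPM in the 6 antibody tumours, against 4.14 ± 5.08 CPM in the other 6 (-1.87 ± 0.57, edgeR adjusted p = 0.134). The gamma subunit Scnn1g had -3.71 ± 1.53 (0.225) and the sodium pump subunit Atp1b1 -1.82 ± 0.71 (0.208). These values moved with the IgG libraries that stood apart in luminal, smooth muscle and secretion markers. Scnn1g had 23.4 CPM in IgG replicate 3 and at most 1.20 CPM in any other library. The highest and next highest levels of Scnn1a (13.8 and 5.59 CPM) and Atp1b1 (178 and 142 CPM) were in IgG replicates 3 and 2. Without IgG replicate 3 the antibody effect was -1.34 for Scnn1g (adjusted p = 0.684), -1.42 for Scnn1a (0.237) and -1.58 for Atp1b1 (0.387), and the medians of the list were -0.30 for the antibody and -0.30 for Lupron. The part of the tissue markers in these values was not tested. The kinase Sgk1, a common target of both corticoid receptors, stood near 0 in either effect (-0.20 ± 0.28 for the antibody and 0.09 ± 0.28 for Lupron).

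Of 22 genes responsive to estrogen or progesterone 20 were tested, 9 of them positive in the averaged antibody effect (median -0.05) and 8 in the averaged Lupron effect (median -0.17). Bmp2, a growth factor, had 133, 185 and 117 CPM with Lupron plus anti-CSF1, 109, 78.5 and 108 CPM with Lupron, 134, 145 and 152 CPM with anti-CSF1 and 109, 62.3 and 85.9 CPM with IgG. The 6 antibody tumours lay above the 6 others (0.65 ± 0.18, edgeR adjusted p = 0.0976), in a comparison where 2.39% of all genes had no overlap. The EGF receptor ligand Areg had 1.58 ± 0.52 (0.156), Tnfsf11 (RANKL, which relays progesterone signals in the mammary gland) 1.60 ± 0.57 (0.178) and Hoxa11 0.67 ± 0.22 (0.156). In the averaged Lupron effect Areg had 1.21 ± 0.52, Tnfsf11 1.40 ± 0.57 and Igf1 -0.88 ± 0.36 (edgeR adjusted p = 0.525 each). The estimates for Areg and Tnfsf11 were thus positive in both averaged effects, which share the IgG tumours, and none passed the adjustment. Tnfsf11 averaged 16.1, 8.52, 9.77 and 2.01 CPM with Lupron plus anti-CSF1, Lupron, anti-CSF1 and IgG. IgG replicate 3 was lowest in Areg (0.854 CPM) and Tnfsf11 (0.142 CPM) and highest in Igf1 (114 CPM).

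**Figure D4:**
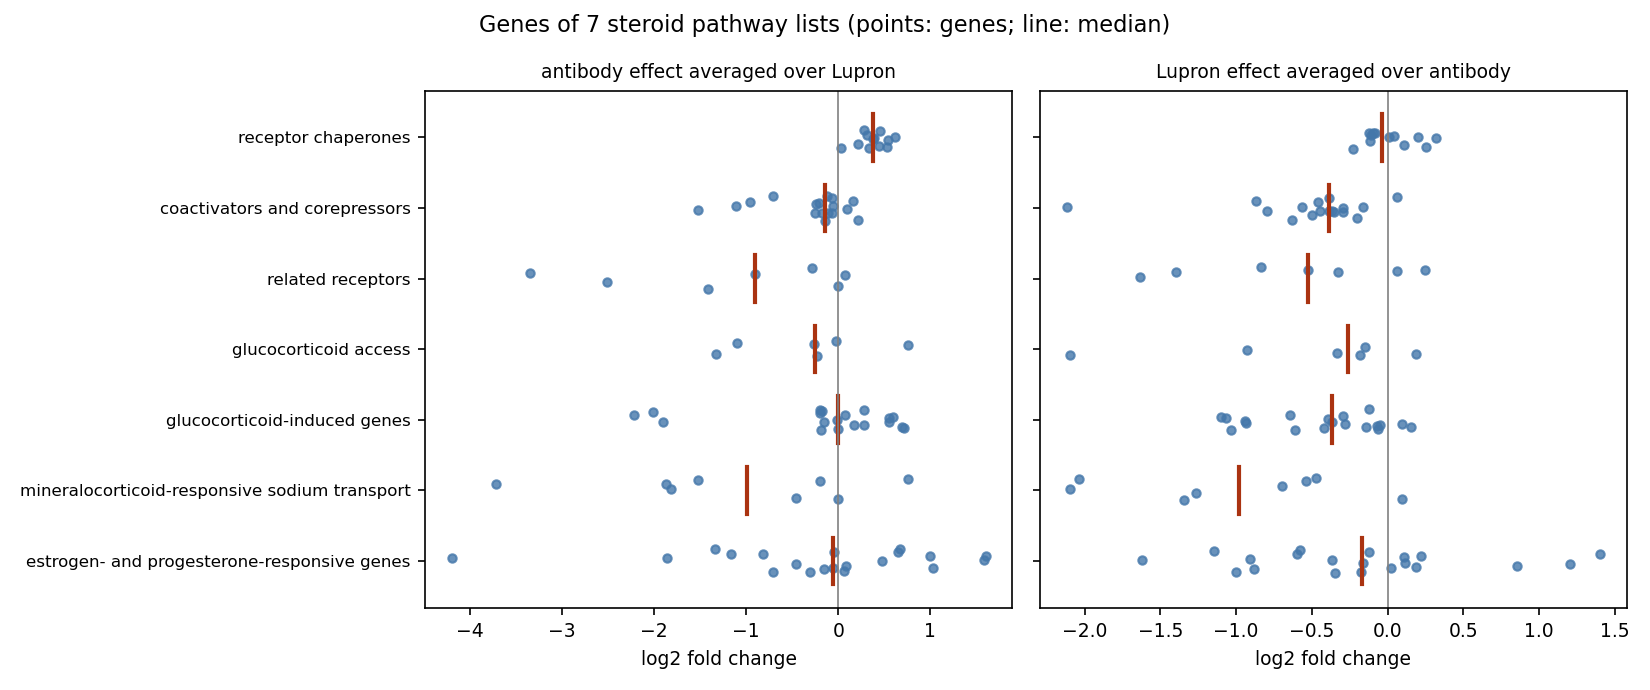
Log2 fold changes (horizontal axes) of the tested genes of 7 steroid pathway lists (rows) in the averaged antibody effect (left) and the averaged Lupron effect (right); points are genes and the vertical line is the list's median. All 12 chaperone genes lie right of 0 for the antibody (median 0.38), and 17 of 19 glucocorticoid-induced genes lie left of 0 for Lupron (median -0.36).

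The genes whose levels ranked the 12 tumours most like each receptor were taken by Spearman correlation, given as a description. The libraries share their groups and the tissue differences above. For Nr3c2 these were Rps4y2 (0.979), Acrbp (0.972), Dnase1l2 (0.972), Rbfox3 (0.965) and Mal2 (0.965), and for Esr2 Rassf10 (0.978), Zfr2 (0.947), Tmem255b (0.937) and Rufy3 (0.933). For Nr3c1 they were Dos (0.972), Pja2, Fbxo38, Aff1 and Reep3 (0.951 each), and for Esr1 Tut1 (0.958), Ttc37 (0.944), Usp37 (0.930), Pik3r2 (0.923) and Dvl2 (0.923). Pgr had the least close matches: Lpin2 (0.860), AI197445 (0.860), Wscd1 (0.811), Kcnq1 (0.804) and Bdkrb1 (0.804).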

How the data were processed

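Raw counts, whole numbers for 23479 symbols in 12 libraries, were deposited by the authors with no normalization; every per-sample column was used. The tools named in the submitters' processing notes are bcl2fastq (2.20.0.422), cutadapt (1.8.1) and HTSeq (0.6.1), with build mm10; aligner, annotation and strandedness are not given there or elsewhere. No 2 libraries looked like duplicates. In R 4.3.3, edgeR 4.0.16 (filterByExpr, TMM, robust quasi-likelihood fit with 1 mean per group, two-sided F test, Benjamini-Hochberg adjustment, threshold 0.05) was fitted to all 12 libraries and checked on simulated counts. The simulated counts had the same spread for every gene and no library that stood apart. They do not show how the test does with such libraries. SEs are the estimate over the square root of F. Exon lengths are from GENCODE M21. Named are the 5 receptors, up to 4 members per list and averaged effect with the smallest p, and 5 like genes per receptor without predicted genes; Sgk1 was chosen after its values were seen, some named genes are given by range only, and some genes that the rule gives are not reported here. Members and lists were chosen with earlier results of these data known. Alternatives were DESeq2 1.42.0, other scaling and filters, the compared groups only, a replicate block and leaving out libraries. The labels do not say that libraries are separate mice, so p-values measure the spread between these samples.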

Additional observations from a re-analysis of the deposited data

How the results depend on the processing

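Of 5 receptors, DESeq2 called 2 for anti-CSF1 versus IgG, 2 for Lupron plus anti-CSF1 versus IgG, 1 for Lupron plus anti-CSF1 versus anti-CSF1, 1 for the averaged antibody effect and 1 for the averaged Lupron effect, where edgeR called 0. Leaving out 1 library gave 0 to 2 for anti-CSF1 versus IgG and 0 to 1 for Lupron versus IgG, for Lupron plus anti-CSF1 versus IgG and for the averaged antibody effect, with calls only when IgG replicate 1 was left out. The cause was not tested. Over all genes, DESeq2 called 1841, 404, 2094, 236, 6, 1425, 12 and 188 in the order of the comparisons in the report, where edgeR called 1, 0, 1, 0, 0, 282, 0 and 0. Leaving out 1 library gave 0 to 2611, 0 to 653, 0 to 2213, 0 to 210, 0, 65 to 1577, 0 to 2 and 0 to 5; fits to the compared groups only called 204 for Lupron plus anti-CSF1 versus Lupron.

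Reversed log2 fold changes were all of values that did not pass. With a replicate block, Esr1 for Lupron versus IgG was -0.063, and no receptor call changed; the averaged antibody effect then called 151 of all genes. Deviations from group means of same-numbered libraries correlated at -0.304 to 0.513 over 18 pairs (median 0.095), 8 of them over 0.1. Libraries of different number gave -0.642 to 0.556 over 36 pairs (median -0.060), 11 of them over 0.1. These ranges overlap, so the values do not settle whether the numbers pair the samples. With IgG replicates 2 and 3 both left out (chosen after seeing the data), Esr1 was -0.33 and Esr2 3.15 for Lupron versus IgG, Esr1 -0.019 and Esr2 2.41 for both agents versus IgG, Nr3c1 0.059 for the averaged antibody effect and Nr3c2 0.40 for the averaged Lupron effect. With no filter on low counts, Nr3c1 was 0.0031 for the averaged antibody effect.

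Leaving out 1 library also turned the direction of these values, in ranges of -0.24 to 0.010 (Nr3c1, anti-CSF1 versus IgG), -0.18 to 0.24 (Esr1, Lupron versus IgG), -0.19 to 0.58 (Esr1, both agents versus IgG), -0.21 to 0.55 (Esr1), -6.29 to 0.57 (Esr2) and -0.95 to 0.059 (Nr3c2, all 3 both agents versus Lupron), -1.91 to 5.57 (Esr2, both agents versus anti-CSF1), -0.055 to 0.065 (Nr3c1, averaged antibody effect) and -1.92 to 1.83 (Esr2, averaged Lupron effect). Depth limits Esr2, with 161 counts in all. The Pgr direction in Lupron plus anti-CSF1 versus anti-CSF1 held without each library in turn (-4.00 to -3.38).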
